A study of Homo sapiens with 54 samples.

Results

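In hormone-treated T47D cells, 424 chromatin regions were enriched for the initiation factor Brf1 at places where no Brf1 region was called with vehicle and no region of the RNA polymerase III subunit POLR3A in either treatment. T47D is an established line from a human breast tumour and carries the oestrogen and progesterone receptors. The regions were picked from the R5020 Brf1 regions on chromosomes 1 to 22 and X as those that share no base with a vehicle Brf1 region or with a POLR3A region of either treatment, leaving out chromosome 21 from 8.15 to 8.50 Mb. The deposited R5020 Brf1 list holds 1354 regions. Of these, 1157 lay on the chromosomes used, 87 fell in the stretch left out and 1070 were kept. The 1070 comprised the 424 hormone-only regions without POLR3A, 346 regions also in the vehicle Brf1 list and 300 hormone-only regions with POLR3A. On the chromosomes used, the vehicle Brf1 list held only 370 regions, with a median enrichment over background of 18.7. The 1157 with R5020 had a median of 5.04. The POLR3A lists held 688 regions with vehicle and 1019 with R5020. How list length moves the hormone-only calls was not tested.

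Cells were exposed for 1 h to ethanol vehicle or to R5020, a synthetic progestin, and studied by chromatin immunoprecipitation and sequencing (ChIP-seq) with 8 antibodies. Each antibody and treatment had 3 libraries and 1 deposited list of enriched regions, 16 lists in all, so there was no spread between replicates, no p-value was computed and the depth of the libraries is unknown. The antibodies were against the progesterone receptor (PR), Brf1, the polymerase III repressor Maf1, the subunits POLR3A, POLR3C, POLR3G and POLR3GL, and acetylated lysine 27 of histone H3 (H3K27Ac). All groups are the same cell line, and nothing in the labels says whether the 3 libraries were separate cultures. For 4 libraries the title says R5020 and the treatment tag ethanol: the first 2 replicates of POLR3C and the first of POLR3G and of POLR3GL. Values for these 3 subunits carry that conflict. The identity of the cells was checked at the ends of marker genes. H3K27Ac was present in both treatments at all 7 luminal markers, including GATA3, FOXA1, ESR1 and PGR. It was absent in both at KRT5 and KRT14 of the basal list and at PTPRC, the pan-leukocyte marker.

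RNA polymerase III transcribes short RNAs such as tRNAs, 5S rRNA and U6 snRNA. Brf1 belongs to TFIIIB, the complex that recruits the polymerase to tRNA-type promoters, and POLR3A is the largest catalytic subunit. Maf1 binds the polymerase and TFIIIB and lowers this transcription. PR is a steroid receptor that binds DNA mainly at enhancers when a progestin is present, and H3K27Ac marks active enhancers and promoters.

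To show where hormone-only Brf1 sits at promoters, members were set against RefSeq promoter windows on GRCh38.p14, each 300 bases long, from 250 bases before to 50 bases after a gene's start. A window met 71 of the 424 members, and 67 of these 71 also had R5020 PR, Maf1 and H3K27Ac. In 64 the Brf1 summit, the point of highest signal, was within 250 bases of the start, and the median summit position over the 71 was -15 bases. The sequences printed here are the 250 bases upstream of the start in the 6 members with the highest Brf1 fold among those that met a window and had their summit far enough upstream for all 21 capitals, which are centred on it. SMU1 and PAOX, near members of higher fold, have no window in the table. They belong to STK17A (chr7:43582858-43583107, plus strand), NSFL1C (chr20:1466850-1467099, minus strand), SEPTIN9 (chr17:77281249-77281498, plus strand), TRIM41 (chr5:181223031-181223280, plus strand), TAF1C (chr16:84187058-84187307, minus strand), SRRM3 (chr7:76201646-76201895, plus strand).
STK17A: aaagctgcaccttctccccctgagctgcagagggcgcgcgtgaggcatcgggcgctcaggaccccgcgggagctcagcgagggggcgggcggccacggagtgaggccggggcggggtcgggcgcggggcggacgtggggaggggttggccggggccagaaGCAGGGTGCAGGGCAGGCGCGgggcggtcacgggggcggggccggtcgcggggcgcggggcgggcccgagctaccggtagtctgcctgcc
NSFL1C: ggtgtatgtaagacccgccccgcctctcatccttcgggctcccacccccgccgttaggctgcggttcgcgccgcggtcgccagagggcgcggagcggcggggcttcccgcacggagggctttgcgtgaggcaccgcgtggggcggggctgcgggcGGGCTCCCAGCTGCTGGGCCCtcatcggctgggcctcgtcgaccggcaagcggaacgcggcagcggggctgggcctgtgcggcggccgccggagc
SEPTIN9: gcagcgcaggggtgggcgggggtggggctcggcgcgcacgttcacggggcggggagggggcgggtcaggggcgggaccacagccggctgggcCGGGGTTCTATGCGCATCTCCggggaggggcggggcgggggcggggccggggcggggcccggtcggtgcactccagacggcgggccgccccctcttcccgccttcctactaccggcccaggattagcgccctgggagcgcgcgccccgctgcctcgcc
TRIM41: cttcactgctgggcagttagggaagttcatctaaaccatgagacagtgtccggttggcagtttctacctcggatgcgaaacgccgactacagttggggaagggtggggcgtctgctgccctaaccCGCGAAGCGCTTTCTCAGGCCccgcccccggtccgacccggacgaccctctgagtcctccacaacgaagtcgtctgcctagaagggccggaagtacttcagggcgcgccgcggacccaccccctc
TAF1C: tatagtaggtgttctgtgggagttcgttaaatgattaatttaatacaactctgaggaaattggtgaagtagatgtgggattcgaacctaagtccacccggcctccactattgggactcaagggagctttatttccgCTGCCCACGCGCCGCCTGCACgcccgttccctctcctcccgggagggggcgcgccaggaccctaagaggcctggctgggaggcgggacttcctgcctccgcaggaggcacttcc
SRRM3: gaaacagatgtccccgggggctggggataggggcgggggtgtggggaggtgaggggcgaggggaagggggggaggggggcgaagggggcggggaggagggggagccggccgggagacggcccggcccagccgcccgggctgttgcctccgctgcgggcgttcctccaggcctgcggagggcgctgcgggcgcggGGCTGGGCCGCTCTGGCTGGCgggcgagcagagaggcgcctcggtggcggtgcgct
These 6 members had Brf1 folds of 6.75 (STK17A), 6.24 (NSFL1C), 6.21 (SEPTIN9), 5.79 (TRIM41), 5.59 (TAF1C) and 5.46 (SRRM3). GC content of the printed stretches ranged from 57.2% (TAF1C) to 80.4% (SEPTIN9). TAF1C encodes a subunit of the polymerase I factor SL1, SEPTIN9 a septin of the cytoskeleton, and STK17A a serine/threonine kinase. The TRIM41 member also lies 640 bp from the tRNA gene TRV-CAC1-5.

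The promoter windows at members were rich in CpG. Their median GC content was 71.0% against 58.7% over all 35116 windows, and the median ratio of observed to expected CpG was 0.908 against 0.579. The B box is the promoter element inside tRNA genes that TFIIIC reads before TFIIIB is placed. Its core GTTCGANNC, searched on both strands, was in 3 of the 71 windows (4.23%, 95% Wilson interval 1.45 to 11.7) and in 0.829% of all windows. The 3 windows are shown around the match, which is in capitals: NACC1 (chr19:13118021-13118109, plus strand), TAF1C (chr16:84187182-84187270, minus strand), ZNF839 (chr14:102319702-102319750, plus strand).
NACC1: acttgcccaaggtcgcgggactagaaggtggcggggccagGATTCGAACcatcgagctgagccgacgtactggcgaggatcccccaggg
TAF1C: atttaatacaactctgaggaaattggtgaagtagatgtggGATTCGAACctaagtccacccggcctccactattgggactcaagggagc
ZNF839: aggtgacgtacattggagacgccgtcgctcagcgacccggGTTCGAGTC
In NACC1 and TAF1C the match reads as the reverse complement of the core, beginning 203 and 173 bases before the start. The Brf1 summits there lie elsewhere, 57 and 104 bases before the start. In ZNF839 the match reads as written and begins 4 bases before the start, where the Brf1 summit also lies. NACC1 (Brf1 fold 4.50), TAF1C and ZNF839 (4.44) all had R5020 PR, Maf1 and H3K27Ac as well. The other motifs were not more frequent than over all windows beyond their intervals. ACANNNTGT, the core of the receptor palindrome, was in 4 windows (5.63%, 2.21 to 13.6; all windows 5.37%). The AP-1 motif TGANTCA was in 4 (5.63%, 2.21 to 13.6; 7.71%), and the forkhead motif TGTTTAC in 1 (1.41%, 0.249 to 7.56; 3.42%). The GATA motif AGATAA was in 2 (2.82%, 0.776 to 9.70), below its 10.3% over all windows. No windows matched for GC and CpG were compared, so how base composition moves these motif shares, that of the B box core included, was not tested. A match describes letters in a window and no binding.

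The hormone-only Brf1 regions without POLR3A coincided with PR and Maf1 more often than either other class of R5020 Brf1 regions. R5020 PR was at 283 of the 424 (66.7%, 62.1 to 71.1), at 40.2% of the regions also in vehicle and at 10.7% of the hormone-only regions with POLR3A. The differences were 26.6 percentage points (95% Newcombe interval 19.6 to 33.2) and 56.1 points (49.97 to 61.3). R5020 Maf1 was at 287 members (67.7%, 63.1 to 72.0), 31.0 points (24.0 to 37.5) above the regions also in vehicle, of which 36.7% had it, and 45.0 points (38.2 to 51.1) above the hormone-only regions with POLR3A, of which 22.7% had it. The background over all 1070 kept regions was 42.4% for PR and 45% for Maf1. The R5020 lists cover 65.0 Mb for PR, 8.23 Mb for Maf1 and 88.4 Mb for H3K27Ac. Against the regions also in vehicle, the PR difference ran from 17.7 points with 1 region per 100 kb to 43.9 without regions over 20 kb from every gene, and the Maf1 difference reached 50.3 when 50% of the Brf1 region had to be shared. The intervals cover counting error over regions only, and neighbouring regions are not independent.

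H3K27Ac was at 287 members with R5020 (67.7%, 63.1 to 72.0), against 49.4% and 28.3% in the other classes and a background of 50.7%. The differences were 18.3 points (11.3 to 25.0) and 39.4 points (32.3 to 45.8). The first of these was 10.4 points with 1 region per 100 kb, 36.2 with the Brf1 summit inside the H3K27Ac region and 37.0 without regions over 20 kb from every gene. The polymerase subunits differed among themselves. POLR3G, the isoform of the polymerase known from stem and tumour cells, was at 57.8% of members (53.0 to 62.4), with a background of 47.6% over all kept regions. The members' share was 5.22 points below the regions also in vehicle with an interval that includes 0 (-12.1 to 1.73), and 42.4 points (35.9 to 48.3) above the hormone-only regions with POLR3A. POLR3C, a subunit of the initiation subcomplex, was at 28 members (6.60%, 4.61 to 9.38), against 31.8% of the regions also in vehicle and 14.4% of all kept regions. The hormone-only regions with POLR3A had it at 5.33%, a difference of 1.27 points whose interval includes 0 (-2.46 to 4.71). POLR3GL, the isoform of most differentiated cells, was at 1 member. The R5020 POLR3G list is long, with 46874 regions, while those of POLR3C and POLR3GL hold 693 and 603.

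**Figure D1:**
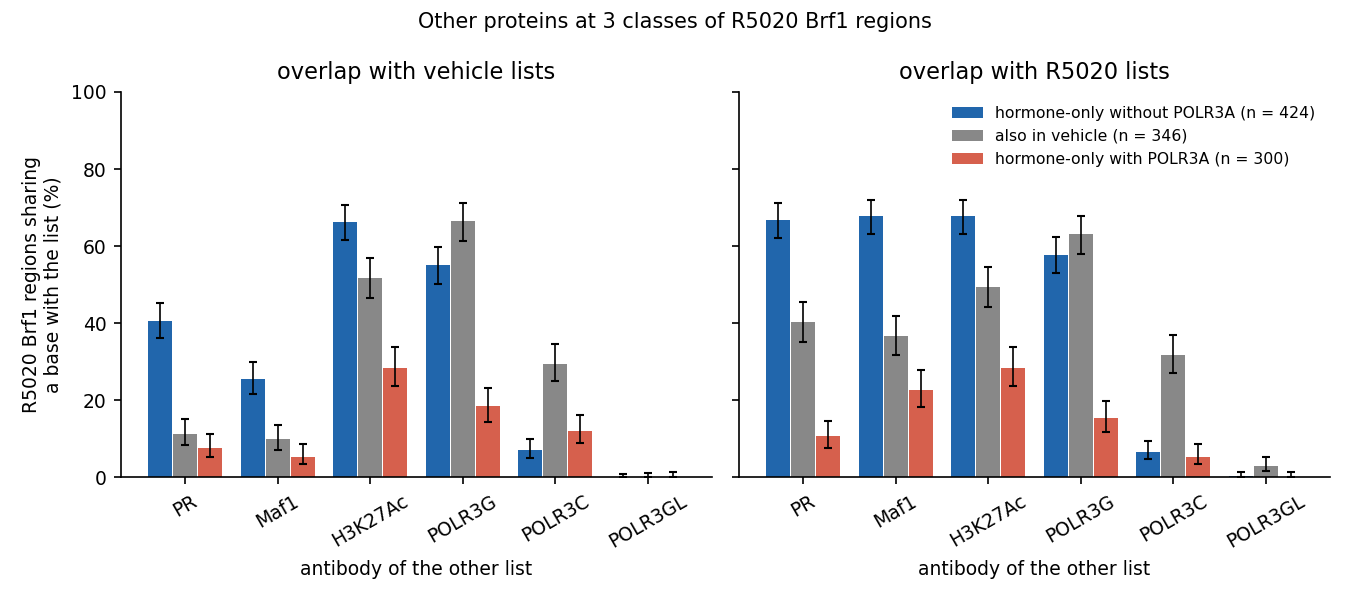
Share of R5020 Brf1 regions (percent, with 95% Wilson intervals) that share a base with the vehicle (left) or R5020 (right) list of each antibody, for the 3 classes of regions. The blue bars, the 424 hormone-only regions without POLR3A, stand at 66.7% for R5020 PR and 67.7% for R5020 Maf1, above both other classes.

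Most members lay where H3K27Ac was also called with vehicle, and a smaller share where vehicle PR or Maf1 was called. H3K27Ac was at 281 members with vehicle (66.3%), against 51.7% of the regions also in vehicle, 28.3% of the hormone-only regions with POLR3A and 50.9% of all kept regions. It was in both lists at 273 members. It appeared only with R5020 at 14 members and only with vehicle at 8, a difference of 1.42 points. The same members are scored in both lists, and no interval that takes this pairing into account was computed. PR was at 172 members with vehicle (40.6%, 36.0 to 45.3), against 21.9% of all kept regions. It was in both lists at 167, in the R5020 list alone at 116 and in the vehicle list alone at 5. Maf1 was at 108 with vehicle (25.5%, 21.6 to 29.8; 14.8% of all kept regions), in both lists at 106, with R5020 alone at 181 and with vehicle alone at 2. The vehicle lists of PR and Maf1 are short (6662 and 3048 regions, against 173115 and 22638 with R5020), and how list length moves these counts was not tested. Vehicle PR was at 11.3% of the Brf1 regions also in vehicle, 29.3 points (23.4 to 34.9) below the members, and vehicle Maf1 was at 9.83% of them, 15.6 points (10.3 to 20.8) below.

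PR, Maf1 and H3K27Ac mostly came together at the same members. All 3 were at 254 members with R5020 (59.9%, 55.2 to 64.5), 1 or 2 of them at 63 and none at 107 (25.2%, 21.3 to 29.6). Of the 283 members with PR, 269 had Maf1 (95.1%, 91.9 to 97.0), against 18 of the 141 without PR (12.8%, 8.23 to 19.3). PR and Maf1 without H3K27Ac were at 15 members, H3K27Ac alone at 16, Maf1 alone at 10 and PR alone at 5. POLR3G followed this division, with 220 of the 254 fully marked members (86.6%) and 1 of the 107 unmarked ones.

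The fully marked and the unmarked members also differed in the Brf1 values that the authors deposited, which chose the members and are given as a description. The fold is the peak caller's enrichment of a region over its estimated background, and the -log10 q is the significance it gave the region. Over all 424 members the fold ran from 1.51 to 11.8 with a median of 4.33, against a median of 37.7 in the regions also in vehicle and 2.30 in the hormone-only regions with POLR3A. The fully marked members had a median fold of 4.68 with a median -log10 q of 5.61. The unmarked members had a lower median fold, 2.22, with a higher median -log10 q, 11.5. The groups overlapped, since unmarked folds ran from 1.51 to 8.35 and fully marked ones from 2.30 to 11.8. Regions were short, with a median width of 184.5 bp.

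**Figure D2:**
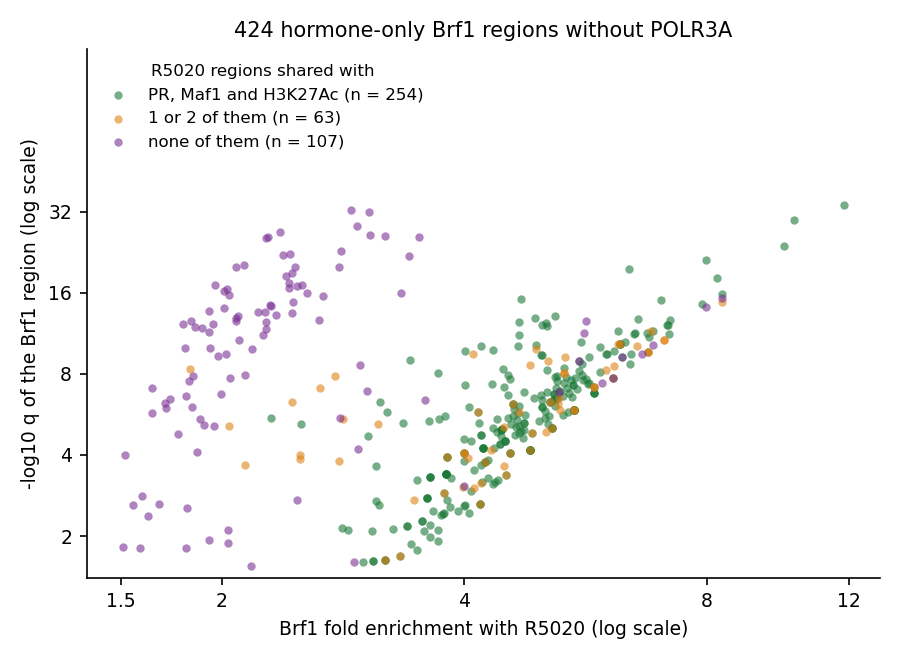
Brf1 fold enrichment (x axis, log scale) and -log10 q (y axis, log scale) of each of the 424 members, coloured by whether R5020 PR, Maf1 and H3K27Ac regions overlap it. Fully marked members lie mostly around a fold of 4.68, and most unmarked members lie at a lower fold (median 2.22) and a higher -log10 q (median 11.5), though the groups overlap.

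The members of highest Brf1 fold lay in or near protein-coding genes. The highest was in GRID2IP, which encodes a scaffold protein of glutamate receptors (chr7:6503606-6504064, fold 11.8, -log10 q 34.0), with R5020 PR at a fold of 6.15, Maf1 at 5.76 and H3K27Ac at 9.87. With vehicle this member had PR at 3.41, H3K27Ac at 11.9 and no Maf1. A member in STMN3, a stathmin that destabilises microtubules (chr20:63641841-63642164, fold 10.3), had PR at 5.81 and Maf1 at 7.52 with R5020, and PR at 4.76 and Maf1 at 4.66 with vehicle. The member 1103 bp from DDB2, a damage-recognition gene of nucleotide excision repair (chr11:47213088-47213350, fold 9.97), had a PR fold of 45.9 and a Maf1 fold of 12.4, and neither with vehicle. The member 95 bp from SMU1, a splicing factor gene (chr9:33076770-33076960, fold 8.36), had H3K27Ac alone. Folds of different antibodies and treatments come from separate lists. They are given side by side, and differences in size between lists are not read as results.

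Among members with neither PR nor Maf1, the next highest folds after SMU1 were near tRNA genes or near or in non-coding RNA genes. They were a member 552 bp from TRI-AAT5-2 (chr6:27176460-27176662, fold 8.35), another 5022 bp from HCG27 (chr6:31192541-31192737, 7.98), one in PRMT5-DT (chr14:22930519-22930822, 7.07) and a further one in DNAJC27-AS1 (chr2:24975663-24975863, 6.86). The member in PRMT5-DT also lies 745 bp from the tRNA gene TRR-ACG1-3. No member overlapped any of 20 other polymerase III genes such as RN7SK, RMRP and RPPH1 or lay within 1 kb of one. The rule leaves out Brf1 regions that share a base with a POLR3A or vehicle Brf1 region. Overlap with genes occupied by them was therefore excluded beforehand, which limits this count and the next. No share over all genes at 1 kb is given for comparison. Of 441 tRNA genes, 10 had a member within 1 kb, at distances of 478 to 943 bp. These 10 members lay 102 to 593 bp from a POLR3A or vehicle Brf1 region, and their Brf1 folds ran from 3.14 (TRV-AAC1-1) to 8.35 (TRI-AAT5-2). The others were beside TRL-CAA4-1 (6.14), TRK-TTT3-4 (5.10), TRD-GTC2-10 (6.49), TRR-ACG1-3 (7.07), TRQ-TTG1-1 (4.68), TRP-TGG3-1 (4.50), TRV-CAC1-5 (5.79) and TRV-AAC1-5 (5.06). Only those beside TRD-GTC2-10, TRV-AAC1-1 and TRV-CAC1-5 had PR, Maf1 and H3K27Ac.

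The R5020 Maf1 and PR regions at members ranked high within their own lists. The strongest Maf1 region at a member had a median fold of 10.9, at the 93.8th percentile of the Maf1 list by fold, against the 52.1st percentile at Brf1 regions also in vehicle. Of the 287 members with Maf1, 157 had a Maf1 region in the top 10% of the list (54.7%, 48.9 to 60.4), against 11 of 127 regions also in vehicle (8.66%, 4.91 to 14.8). The PR region had a median fold of 24.9, at the 91.7th percentile, against the 60.8th at the regions also in vehicle. It was in the top 10% of the PR list at 149 of 283 members (52.7%, 46.8 to 58.4) and at 29 of 139 regions also in vehicle (20.9%, 14.9 to 28.4). The H3K27Ac region was in the top 10% at 80.8% of the 287 acetylated members and at 55.6% of 171 regions also in vehicle.

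Seen from the Maf1 list, the strongest regions often held a member. Of all 22638 R5020 Maf1 regions, 276 overlapped a member (1.22%). Among the 100 with the highest Maf1 fold, 41 did (41.0%, 31.9 to 50.8). The share was 16.0% of ranks 101 to 300, 7.43% of ranks 301 to 1000, 1.70% of ranks 1001 to 3000, 0.871% of ranks 3001 to 10000 and 0.443% beyond. Of the 45 regions among the first 100 with any R5020 Brf1, 41 thus had Brf1 that was hormone-only and without POLR3A. In the PR list 273 of 173115 regions overlapped a member (0.158%), with 9 of the first 100 (9.00%, 4.81 to 16.2) and 0.0926% beyond rank 10000.

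**Figure D3:**
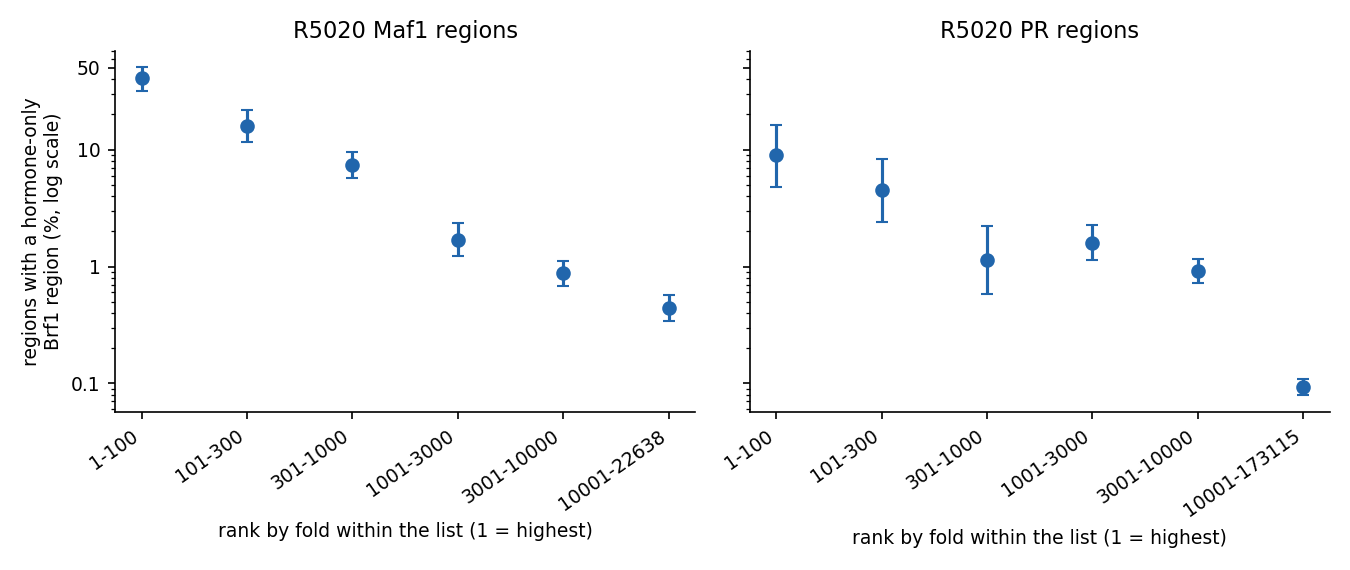
Share of R5020 Maf1 regions (left) and R5020 PR regions (right) that overlap a hormone-only Brf1 region without POLR3A (percent, log scale, 95% Wilson intervals) by the rank of their fold within their own list. In the Maf1 list the share falls from 41.0% of the first 100 to 0.443% beyond rank 10000.

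At the top of the Maf1 list the members lay in DERA, a deoxyribose-phosphate aldolase gene (chr12:15936851-15937036, Brf1 fold 7.17, Maf1 fold 41.5, PR fold 53.2), and ACSS1, a mitochondrial acetyl-CoA synthetase gene (chr20:25017366-25017588, Brf1 fold 7.15, Maf1 38.0, PR 49.4). Others were in FAM228B (Brf1 fold 4.56, Maf1 44.2), in ZNRF1, a ubiquitin ligase gene (5.39, Maf1 40.8), and in ABCC11, a transporter gene (6.75, Maf1 33.7). These 5 were named after their values were seen. Maf1 was absent with vehicle at DERA, ACSS1, ZNRF1 and ABCC11, and had a fold of 33.9 at FAM228B. Across members the Brf1 fold was weakly correlated with the Maf1 fold (Spearman's rho 0.368, Pearson's r of log2 folds 0.42, 287 members) and with the PR fold (rho 0.261, r 0.24, 283 members), and weakly and negatively with the H3K27Ac fold (rho -0.138, 287 members). These points share the libraries and many share an R5020 region, so the correlations are descriptions.

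The Brf1 summit lay close to those of Maf1 and PR and farther from that of H3K27Ac. The median distance was 43 bp to the Maf1 summit, 46 bp to the PR summit and 359 bp to the H3K27Ac summit. The PR summit was within 50 bp at 146 of 283 members (51.6%, 45.8 to 57.4), against 23 of 139 regions also in vehicle (16.5%, 11.3 to 23.6) and 3 of 32 hormone-only regions with POLR3A. Within 200 bp it was at 216 of 283 members (76.3%, 71.0 to 80.9), 58 of 139 regions also in vehicle (41.7%, 33.9 to 50.04) and 26 of 32 hormone-only regions with POLR3A (81.3%, 64.7 to 91.1), so the order against the last class turned with the limit. The Maf1 summit was within 50 bp at 162 of 287 members (56.4%, 50.7 to 62.1) and at 48 of 127 regions also in vehicle (37.8%, 29.8 to 46.5). Among hormone-only regions with POLR3A it was at 43 of 68 (63.2%, 51.4 to 73.7), an interval that overlaps that of the members.

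**Figure D4:**
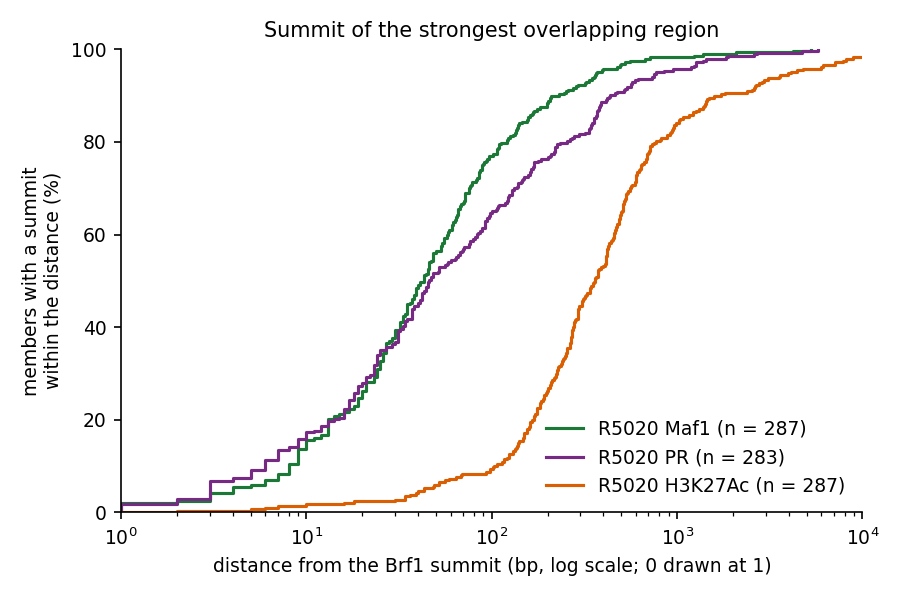
Cumulative share of members (percent) whose Brf1 summit lies within a given distance (bp, log scale) of the summit of the strongest overlapping R5020 Maf1, PR or H3K27Ac region. The Maf1 and PR curves pass the median at 43 and 46 bp and the H3K27Ac curve at 359 bp.

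Members lay both at the ends of genes and away from them. An end of a protein-coding gene was within 1 kb of 114 members (26.9%, 22.9 to 31.3), against 18.5% of the regions also in vehicle and 5.33% of the hormone-only regions with POLR3A, differences of 8.39 points (2.42 to 14.2) and 21.6 points (16.5 to 26.4). The 317 members with at least 1 of PR, Maf1 and H3K27Ac were split at 1 kb into 111 near a coding gene end and 206 farther away. The Brf1 fold had a median of 4.59 near gene ends and 4.68 farther away. The PR fold had a median of 9.07 near gene ends and 33.8 farther away, and the Maf1 fold had medians of 5.92 and 16.3. H3K27Ac ran the other way, with 19.5 and 13.9. Vehicle Maf1 was at 45.9% of those near gene ends and 26.7% of those farther away, a difference of -19.2 points (-30.0 to -8.20). For vehicle PR the shares were 60.4% and 49.0%, and the interval of the difference, -11.3 points, includes 0 (-22.3 to 0.178).

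Genes known to respond to progestins were read from a list of 40, of which 6 had a member within 10 kb (15.0%, 7.06 to 29.1). The background over 19974 protein-coding genes was 1.58%. The list was chosen with earlier results of these data known, so these shares are a description. FKBP5, a chaperone of steroid receptors, had 2 members (chr6:35726823-35727164, fold 4.21, and chr6:35728021-35728268, fold 4.82) in 1 R5020 PR region of fold 34.5 and 1 Maf1 region of fold 27.4. The second of them had PR and Maf1 with vehicle and the first had neither. ZBTB16, a zinc-finger transcription factor gene, held the strongest (chr11:114179294-114179557, fold 6.78, PR 44.4, Maf1 32.2), where H3K27Ac appeared only with R5020. NFKBIA, the inhibitor of NF-kappaB, had 2 (chr14:35403904-35404200, fold 5.40, and chr14:35404685-35404847, fold 5.67) with PR at 46.0 and Maf1 at 23.5. BCL2L1, an inhibitor of apoptosis, had 1 at 106 bp (chr20:31664181-31664345, fold 4.54, PR 31.1, Maf1 23.8). MUC1, a mucin gene of secretory epithelium, had 1 at 1048 bp (chr1:155193964-155194133, fold 5.49, PR 17.1, Maf1 4.55). MYC had 1 at a fold of 3.66, with PR at 5.15 and Maf1 at 4.12. All 8 members at these 6 genes had PR, Maf1 and H3K27Ac with R5020. The other 34 genes of the list, PER1, SGK1 and TSC22D3 among them, had no member within 10 kb.

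Genes of the luminal list, 15 in number and including GATA3, FOXA1 and ESR1, had no member within 10 kb (0%, upper Wilson bound 20.4%). Of 37 genes of the polymerase III machinery and its partners, 1 had a member (2.70%, 0.479 to 13.8). It was POLR2K, a subunit gene shared by the 3 nuclear polymerases, with a member at 6499 bp, a fold of 4.82 and H3K27Ac alone. The share over all 19974 protein-coding genes, 1.58%, lies inside the intervals of both lists, so neither count is read as a result about its list.

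The largest group of fully marked members lay over the U2 snRNA genes on chromosome 17. U2 is a spliceosomal RNA transcribed by polymerase II, and its genes form a tandem array that includes RNU2-1. The array held 11 members between chr17:43233760-43300203, with Brf1 folds of 3.36 to 5.18 and a median of 4.68. All 11 had PR, Maf1 and H3K27Ac with R5020, all 11 had PR and Maf1 with vehicle, and all 11 had POLR3G. POLR3C was at 7 of them with R5020 and 6 with vehicle. Within 500 bp of the 13 annotated snRNA genes of the array, R5020 Brf1 was found at 12 and vehicle Brf1 at 2. POLR3A was found at none in either treatment. Maf1 was at all 13 in both treatments, with fold medians of 14.3 in the R5020 list and 7.58 in the vehicle list, and PR at all 13 with 18.2 and 7.71. At RNU2-1 itself the Brf1 fold was 4.90 with no vehicle region. These copies are nearly identical, so the reads could not be placed on 1 copy with certainty, and the group was singled out after its values were seen.

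**Figure D5:**
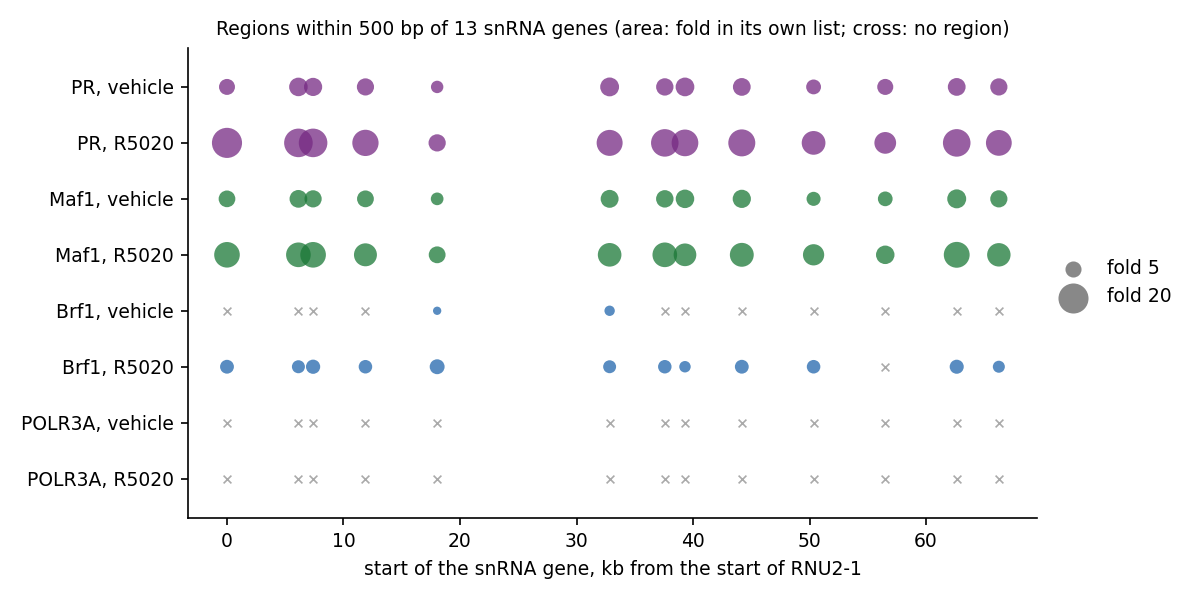
Regions within 500 bp of the 13 snRNA genes of the U2 array, placed by distance from the start of RNU2-1 (kb), for 4 antibodies in both treatments. The area of each circle is the fold in its own list and a cross means no region: PR and Maf1 are at all 13 genes in both treatments, Brf1 at 12 with R5020 and 2 with vehicle, and POLR3A at none.

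Other small groups differed from the array. SNORD3A, which encodes the U3 snoRNA, had a member (chr17:19188022-19188208, fold 7.98) with a PR fold of 23.5 and a Maf1 fold of 34.0 with R5020, and 13.4 and 14.8 with vehicle. On chromosome 21, 7 members between chr21:8996200-9002443 (folds 3.46 to 5.34) had PR and Maf1 in both treatments and no H3K27Ac in either. At members with 1 or 2 of the 3, R5020 Maf1 regions were up to 24324 bp wide and PR regions up to 14461 bp. With vehicle, Maf1 was at 12 of these members, the 7 among them, and the median and highest widths were both 18417 bp. Some of the 7 therefore had the same vehicle Maf1 region, which is counted more than once. The same may hold for their R5020 Maf1 and their PR regions. In the REXO1L repeat array on chromosome 8, 4 members (folds 2.04 to 2.77) had Maf1 and no PR. These groups were also chosen after their values were seen.

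The 107 members without PR, Maf1 or H3K27Ac lay mostly far from genes. Of these, 87 were more than 20 kb from every annotated gene (81.3%), against 10 of the 254 fully marked members. The share was 55.3% in the hormone-only regions with POLR3A and 0.867% in the regions also in vehicle. The 87 fell into 17 stretches, of which 7 with 3 or more members held 72. The one with the most members, chr1:143190599-143266888, held 19 of them (folds 1.55 to 2.28) among 45 R5020 Brf1 regions in all, with 30 R5020 POLR3A regions and no vehicle POLR3A or Brf1 region. Others were chr10:39986413-42086612 (15 members), chr1:122524646-125181880 (14) and chr4:49097639-49711865 (11). The sequence of these stretches was not examined, and whether reads could be placed there with certainty was not tested. Within 1 kb of a POLR3A or vehicle Brf1 region were 41 of the 107 and 5 of the 254. By -log10 q, 8 of the 10 highest members of all 424 belonged to this unmarked group. They included chr10:39986413-39986565 (fold 2.90, -log10 q 32.6), chr17:25389834-25389985 (3.04, 31.8), chr10:41133818-41133979 (2.94, 28.3) and 4 on chromosome 1 (chr1:124737216-124737359, chr1:123101493-123101638, chr1:143200218-143200418 and chr1:122524646-122524797). The eighth, in the mitochondrial pseudogene MTATP6P1 (chr1:633932-634096, fold 2.36, -log10 q 26.8), shares its sequence with mitochondrial DNA. Without the regions over 20 kb from every gene, PR was at 83.8% of the 321 members left and Maf1 at 85.0%.

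The member nearest to the boundary (chr14:34556240-34556426, fold 5.54) abuts a vehicle Brf1 or POLR3A region with 0 bases between them. The kept region with the smallest overlap (chr13:17779629-17779788, fold 3.44) shares 79 bases and is no member. A POLR3A or vehicle Brf1 region was within 1 kb of 59 members, within 10 kb of 101 and within 100 kb of 156. Among the 365 members at least 1 kb away, PR was at 75.3% and Maf1 at 76.2%.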

How the data were processed

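ChIP-seq peak lists of T47D cells were used, 1 for each of 8 antibodies and 2 treatments. Reads were processed with cutadapt, Bowtie2 and MACS2 on hg38, per the submitters' processing notes; their settings, the controls and how replicates were combined are not given in the sources used here. The authors deposited a fold (a ratio of signal over background) and a -log10 q-value for each peak. These deposited values were ranked only within a list. Folds of separate lists were otherwise set side by side or correlated across members, as descriptions. Peaks on chromosomes 1 to 22 and X were kept, and overlap meant at least 1 shared base. Gene positions, promoter windows and tRNA genes came from RefSeq GRCh38.p14. Shares have 95% Wilson intervals, and differences between separate sets of regions have Newcombe intervals. Scripts used Python 3.11.15, numpy 2.4.6, pandas 2.3.3 and scipy 1.17.1. The overlap code, tested on simulated regions, recovered 200 of 200 planted overlaps.

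Libraries were grouped by their titles. The members and gene lists were chosen with earlier results of these data known. Regions were named by the highest -log10 q (10), the highest fold (5), the highest fold without PR and Maf1 (5), nearness to tRNA or listed genes, and distance to the rule's boundary; a named region is not reported here. Alternatives varied the q minimum, overlap, distances and the regions left out. Depth is unknown, and the input libraries were not analysed here.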

Additional observations from a re-analysis of the deposited data

How the results depend on the processing

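No difference changed sign under any alternative, and 41 of 75 values moved by less than their interval. With a -log10 q of at least 5 in the other list, Maf1 was at 62.3% of members. With 50% of the Brf1 region shared, the differences from the regions also in vehicle were 41.2 points for PR and 50.3 for Maf1, and with the Brf1 summit inside the other region 42.4 for PR and 36.2 for H3K27Ac. With a -log10 q of at least 5 in the Brf1 list, 281 members were left, with PR at 61.6%, Maf1 at 60.1% (23.7 points above the regions also in vehicle), H3K27Ac at 63.0% and a coding gene end within 1 kb at 21.4%. A window of 5 kb gave 37.7%. For the 365 members at least 1 kb from vehicle Brf1 and POLR3A regions, PR was at 75.3% (35.2 points above the regions also in vehicle and 64.7 above the hormone-only regions with POLR3A), Maf1 at 76.2% (39.5 and 53.5) and H3K27Ac at 75.1% (25.6 and 46.7). Both remaining alternatives were chosen after seeing the data. Without regions over 20 kb from every gene, PR was at 83.8% (43.9 and 61.4 points), Maf1 at 85.0% (48.02 above the regions also in vehicle), H3K27Ac at 86.3% (37.0) and a coding gene end at 35.5%. With 1 region per 100 kb, PR was at 73.4% (17.7 above the regions also in vehicle), Maf1 at 73.4%, H3K27Ac at 75.7% (10.4) and a coding gene end at 31.7%. These alternatives change either which regions enter or what counts as overlap or nearness, and no other cause was tested. No paired analysis was possible because each antibody and treatment has 1 deposited list without replicate numbers, and for the same reason no replicate could be left out.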
